A study of Mus musculus with 30 samples.

Results

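Mouse microglia carrying intact Mir137 had 834 H3K4me3 regions in the list of regions specific to that genotype, and 438 of them are described here. They were chosen by 2 criteria: each overlapped the 2 kb on either side of an end of a RefSeq protein-coding gene, and none overlapped a listed region of RNA polymerase II (Pol II) or of Pol II phosphorylated at serine 5 (Ser5P) in either genotype. The 10 lists of the series hold 22399 regions in all. The gene-end criterion kept 633 of the 834 regions, and the polymerase criterion then removed 195.

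Microglia are the resident macrophages of the brain. They were sorted from C57BL/6J mice aged 8 weeks and studied with CUT&Tag, where a transposase tethered to an antibody tags the DNA around the antibody's target. All mice carried a tamoxifen-inducible Cre recombinase from Tmem119, a marker gene of microglia, and received tamoxifen on 7 consecutive days. Controls were Mir137+/+;Tmem119-CreERT2 (cWT) and knockouts Mir137loxP/loxP;Tmem119-CreERT2 (cKO), with 3 replicates per genotype for each of 5 antibodies (30 samples). Each deposited list pools its replicates into 1 value per region, so the spread between replicates and the read depth are unknown. Whether the replicates were different mice is not stated in the labels, and the protocol gives H3K4me3 and Pu.1 the same antibody catalogue number. No listed region lay within 1073 kb of Mir137 (chromosome 3, 118433857 to 118433929), so its deletion could not be checked here.

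H3K4me3 is trimethylation of lysine 4 on histone H3. SET1 and MLL methyltransferase complexes deposit it on the nucleosomes beside active transcription starts, above all at CpG-rich promoters. Pol II phosphorylated at serine 5 is the form found soon after initiation, and H3K27ac (acetylation of lysine 27) marks active promoters and enhancers. Pu.1 is a transcription factor of the myeloid lineage.

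The promoters of 4 genes are printed as examples of the sequence under these regions. They are genes named below for a small deposited p, for H3K27ac or from a gene list whose promoter window had at least 150 of its 300 bases inside a member. Windows of genes named for other reasons, such as Pspc1 and Ranbp9, also lay inside members and are not printed. The windows run from 250 bases before the transcription start to 50 after it, taken from RefSeq (GRCm38.p6) and printed 5′ to 3′ on the gene's strand; capitals mark the bases inside the member. Plk1 encodes a mitotic kinase, and its window, chr7:122159185-122159484 on the plus strand, held 25 CpG dinucleotides with 245 bases inside the member. Fcrls encodes a receptor-like surface protein of homeostatic microglia, and its window, chr3:87263475-87263774 on the minus strand, held 6 CpGs with 155 bases inside. Rbbp5 is a subunit of the SET1 and MLL complexes themselves; its window, chr1:132477117-132477416 on the plus strand, held 16 CpGs with 275 bases inside. Kdr encodes a VEGF receptor of endothelial cells. Its window, chr5:75978406-75978705 on the minus strand, held 19 CpGs and lay wholly inside the member.
Plk1: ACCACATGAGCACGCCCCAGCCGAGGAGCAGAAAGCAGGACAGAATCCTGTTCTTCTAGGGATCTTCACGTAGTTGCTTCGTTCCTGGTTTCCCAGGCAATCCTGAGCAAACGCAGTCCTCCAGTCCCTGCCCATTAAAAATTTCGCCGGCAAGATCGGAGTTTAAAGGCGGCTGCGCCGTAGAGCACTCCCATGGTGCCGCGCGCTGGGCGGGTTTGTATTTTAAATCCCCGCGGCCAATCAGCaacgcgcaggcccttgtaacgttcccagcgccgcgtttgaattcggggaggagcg
Fcrls: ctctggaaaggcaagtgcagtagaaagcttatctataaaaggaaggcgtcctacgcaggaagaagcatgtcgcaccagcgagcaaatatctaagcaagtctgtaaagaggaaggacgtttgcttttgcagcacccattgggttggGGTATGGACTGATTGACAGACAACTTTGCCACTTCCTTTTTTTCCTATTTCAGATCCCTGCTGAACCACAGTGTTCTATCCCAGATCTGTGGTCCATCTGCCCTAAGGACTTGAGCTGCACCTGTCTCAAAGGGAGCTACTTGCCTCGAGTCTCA
Rbbp5: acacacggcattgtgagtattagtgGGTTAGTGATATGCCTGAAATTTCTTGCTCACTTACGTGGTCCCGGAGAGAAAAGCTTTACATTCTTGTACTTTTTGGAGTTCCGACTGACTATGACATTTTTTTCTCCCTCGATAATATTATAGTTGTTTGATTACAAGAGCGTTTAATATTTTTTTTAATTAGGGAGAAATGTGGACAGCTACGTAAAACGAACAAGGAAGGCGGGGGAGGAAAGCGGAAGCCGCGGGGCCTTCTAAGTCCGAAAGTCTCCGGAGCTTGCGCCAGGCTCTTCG
Kdr: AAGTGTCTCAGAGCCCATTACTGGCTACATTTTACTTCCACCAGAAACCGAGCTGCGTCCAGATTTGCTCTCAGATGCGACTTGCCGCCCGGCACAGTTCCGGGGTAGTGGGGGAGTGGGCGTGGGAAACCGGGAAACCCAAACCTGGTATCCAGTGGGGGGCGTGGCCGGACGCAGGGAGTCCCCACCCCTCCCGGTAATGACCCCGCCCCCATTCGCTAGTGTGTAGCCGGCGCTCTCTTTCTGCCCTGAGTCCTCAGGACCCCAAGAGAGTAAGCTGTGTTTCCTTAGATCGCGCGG
Counted from base 1 of each window, Plk1 had a GC box (GGGCGG) at bases 208 to 213 and a CCAAT box at 237 to 241. Fcrls had the letters of a TATA box (TATAAA) at 34 to 39, well upstream of the start, which follows base 250. It had a CCAAT box on the other strand, printed as attgg, at 136 to 140. Both lay outside the member. Kdr had GC boxes on the other strand, printed as CCGCCC, at 85 to 90 and at 206 to 211, while the Rbbp5 window held none of the motifs searched.

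The member regions sat mostly at transcription starts, on the transcribed side. Of the 438, 350 (79.9%) lay within 2 kb of an annotated start of a coding gene, 4 lay at a 3′ end alone (Slc11a1, Dapk3, Epp13 and Gm13283, named after their values were seen), and for 84 the RefSeq promoter table did not settle the side. Outside chromosome 18, for which no promoter windows were used here, 349 of 426 midpoints fell within 2 kb of a start. Of these, 272 (77.9%) were downstream, 225 (64.5%) by 1 to 500 bp, and the median offset was 184 bp (quartiles 31 and 324). Regions of cKO microglia chosen by the same criteria, 702 in all, had a median offset of 185 bp and 81.4% downstream (446 of 548).

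**Figure D1:**
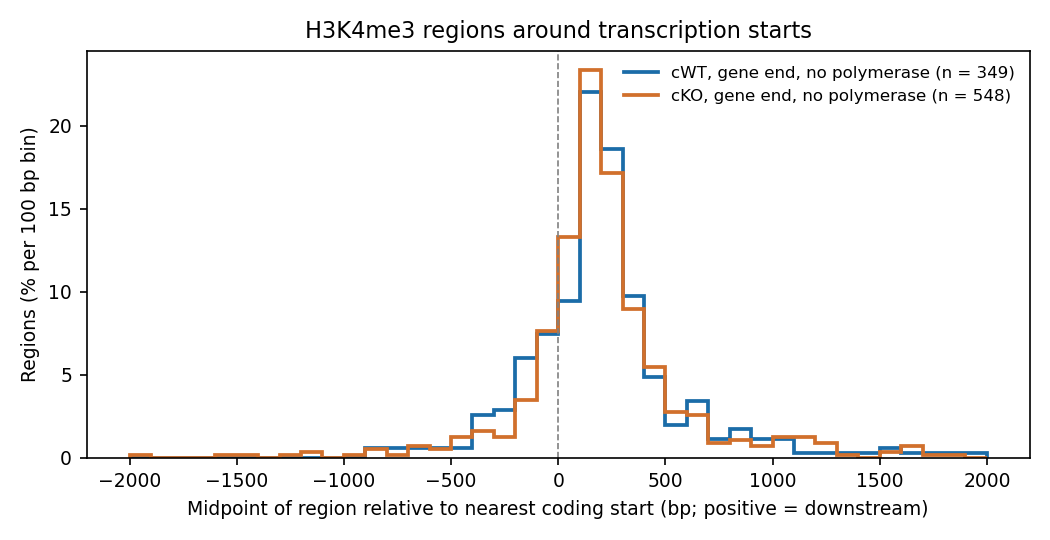
Position of H3K4me3 region midpoints relative to the nearest coding transcription start (bp, positive downstream) as percent of regions per 100 bp bin, for the 349 cWT members and 548 comparable cKO regions within 2 kb of a start. Both curves peak between 100 and 200 bp downstream, and 77.9% of the cWT midpoints lie downstream.

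A member overlapped the promoter window itself in 212 of 426 cases (49.8%), against 350 of 681 in the cKO set (51.4%). The odds ratio was 0.937 (95% interval 0.736 to 1.19), and the share was not called different, a call being an adjusted p under 0.05 (two-sided Fisher's exact test, adjusted p = 0.777). Every p-value here compares lists of regions and not replicates, and intervals cover the counting of regions only. Starts on both strands lay within 1 kb of 18 of 426 member midpoints (4.23%), the arrangement of divergent promoters, against 46 of 681 (6.75%) in the cKO set, a difference that was not tested.

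The authors' values for the members come from the same list that the members were chosen from, and are given as a description without a test. Member widths ran from 158 to 1670 bp with a median of 387 bp. The widest covered Dbp, a circadian PAR-bZIP factor, with its neighbour Car11 (chromosome 7, 45705184 to 45706853). Next came Hmgn5, a nucleosome-binding protein (1349 bp), and Ranbp9, a scaffold protein (1235 bp). The deposited p-value had a median of 0.857, and the sources used here do not say what it tests. It was under 0.05 for 3 of 438 members (0.685%) and for 1 of 702 regions of the cKO set (0.142%). In the cWT list it was under 0.05 for 2 of 142 regions away from gene ends without polymerase (1.41%). Among the 195 cWT gene-end regions with polymerase it was under 0.05 for 0. The deposited adjusted p-value was under 0.05 for no region of these sets.

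The 3 members with a deposited p under 0.05 were led by Oasl1, an interferon-induced relative of the oligoadenylate synthetases. Its region (chromosome 5, 114922298 to 114922742) had a signal of 39.9, and the authors gave it p = 0.00113 and an adjusted p of 0.238. Its midpoint was at -720 bp from the start, and it was the sole member with the word primary in its name. The authors' values for the others were p = 0.0347 at 9130401M01Rik and p = 0.0491 at Pex14, part of the peroxisomal import machinery (chromosome 4, 149099131 to 149099812). Next by the authors' p-value came Zfp143, a promoter-binding zinc finger factor (0.225), and Mitf, a factor of melanocyte, lysosome and macrophage genes (0.267). They were followed by Arhgap12, a GTPase-activating protein (0.291), Myo1e, a class I myosin (0.305), and Zbtb5 (0.311). The signal of these 8 regions ran from 20.4 (Zbtb5) to 39.9 (Oasl1), against a member median of 15.4.

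No gene held more than 2 members. The 438 regions were credited to 497 coding genes, 68 of them to 2 or more neighbouring genes each, and 14 genes held 2 members. In 7 cases 2 members lay side by side with no base between, and each such pair had the same deposited signal. Examples were Erbb3, a receptor of the EGF receptor family (chromosome 10, 128589828 to 128590186 and 128590187 to 128590431, signal 20.4 in both), Spen, a transcriptional corepressor (13.6 in both), and Rhbdf1, an inactive rhomboid protein (13.7 in both). Ap5s1, an adaptor complex subunit, was another (14.2 in both). Klhl6, Slc11a1 and Dusp7 held 2 separate members each. Gm13289, Gm13276 and Gm13283 are predicted genes of 1 cluster on chromosome 4 that held 6 members between 88760270 and 88788365. Of these 6, 4 overlapped a cWT H3K27ac region, and the member at 88785131 to 88785363 was also credited to Ifnz. Whether reads there come from near-identical copies was not tested.

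At the 2 kb limit, the members farthest from a gene end were those of Nup160 (a nuclear pore protein, 1959 bp), Sirpa (the receptor of CD47, 1899 bp) and Zfp580 (1894 bp). The nearest regions beyond the limit lay 2040, 2058 and 2131 bp from an end. An annotated start inside a gene can lie nearer than its end. The Zfp580 midpoint was 136 bp downstream of a start, and the midpoint of the region at 2131 bp was 142 bp downstream of a start of Smg9. At the polymerase limit, a cKO Ser5P region began at the base after the Drap1 member (chromosome 19, 5424646 to 5425186). The cKO Pol II regions beside Sdhb and Rtf2 were 2 and 4 bp from the members. Just across the limit, regions at Nanos1 and at Fbxo47 were left out for overlaps of 4 and 8 bp with a polymerase region.

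Listed polymerase lay near some members without covering them. A cKO Pol II or Ser5P region lay within 1 kb of 54 members (12.3%) and within 10 kb of 125 (28.5%). A cWT one lay within 10 kb of 5 (1.14%), and the cWT lists are shorter, with 394 Pol II and 127 Ser5P regions against 4647 and 6163 in cKO. In the cKO set the shares within 10 kb were 22.8% and 2.14%. Beside the member at Runx1, a transcription factor of blood lineages (chromosome 16, 92825517 to 92825788), a cKO Pol II region lay 53 bp away. The median distance to cKO polymerase was 33432 bp, and it was 43594 bp for the 702 cKO regions. These distances follow in part from the rule and were not tested. Over the whole gene and 2 kb on either side, 133 of the 497 member genes (26.8%) held a cKO polymerase region, beside 26.8% of all 21887 coding genes. The rule left out regions over polymerase, which bears on this share too, and all coding genes include genes silent in microglia. The 2 shares were therefore not tested against each other.

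Of the 438 members, 355 (81.1%) overlapped no listed H3K27ac or Pu.1 region of either genotype. The shares were 79.5% in the cKO set, 74.6% in the cWT regions away from gene ends and 76.4% in the cWT gene-end regions with polymerase, and these differences were not tested. The lists hold regions specific to 1 genotype, so a site that is not listed may still carry the mark in both. A cWT H3K27ac region covered part of 66 members (15.1%, 95% exact interval 11.8 to 18.8%), and 10 (2.28%) met a cKO one. The cWT H3K27ac list is also longer, with 6995 against 847 regions; the members reached 0.958% and 1.06% of these lists. Of the 66, 59 were at a start.

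By deposited p, the first of the 66 was the region at Mitf (chromosome 6, 97807008 to 97807642), which held a whole cWT H3K27ac region of 301 bp. Dcp1b, an mRNA decapping cofactor, shared 339 bp with one. Arid4a, a retinoblastoma-binding protein, shared 379 bp, and Psmc3, a proteasome ATPase, 367 bp. The others were Mxi1, an antagonist of Myc, Nt5c with its neighbour Armc7, Layn, a hyaluronan receptor, and Ehmt2, a histone H3 lysine 9 methyltransferase. The median width was 410 bp for the 66 and 384 bp for the other 372.

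The H3K27ac share was 17.0% in the cKO H3K4me3 regions at gene ends without polymerase (119 of 702) and 18.3% in the cWT H3K4me3 regions away from gene ends without polymerase (26 of 142). Neither difference from the members was called. The cWT gene-end regions with polymerase had a share of 21.0% (41 of 195), which was not tested. The odds ratios were 0.872 (95% interval 0.629 to 1.21) and 0.785 (0.478 to 1.29), each with an adjusted p of 0.684 (two-sided Fisher's exact tests). The regions away from gene ends were not all distant from starts, since annotated starts also lie inside genes. Outside chromosome 18, 31.4% of them had a midpoint within 2 kb of a start, and 13.9% overlapped a promoter window. The second odds ratio therefore does not compare promoters with distant sites. At the level of genes, 174 of the 497 member genes (35.0%) held a cWT H3K27ac region over the gene or 2 kb beside it, beside 18.3% of all coding genes, which include genes silent in microglia.

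**Figure D2:**
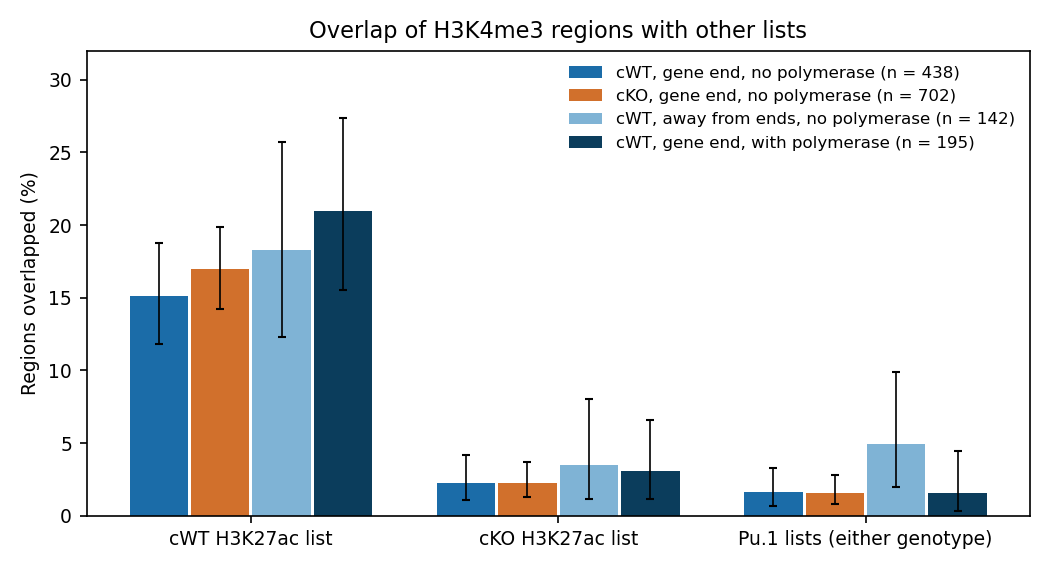
Percent of H3K4me3 regions overlapping the cWT H3K27ac list, the cKO H3K27ac list and the Pu.1 lists, in 4 sets of regions; bars start at 0 and error bars are 95% exact binomial intervals for counting of regions. The members (15.1% over cWT H3K27ac) have an interval that overlaps those of the other sets in each group of bars.

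Pu.1 was listed at 7 members (1.60%). All 7 regions were of the cKO list, which holds 1017 Pu.1 regions against 44 in the cWT list. In the cKO H3K4me3 set it was 11 of 702 (1.57%), with an odds ratio of 1.05 (95% interval 0.413 to 2.64, two-sided Fisher's exact test, adjusted p = 1.00). In the cWT regions away from gene ends without polymerase, the Pu.1 share was 7 of 142 (4.93%). It was 3 of 195 (1.54%) in the cWT gene-end regions with polymerase, and neither of these 2 shares was tested. The member at P2rx4, an ATP-gated channel of microglia (chromosome 5, 122707433 to 122708100), held a whole Pu.1 region of 203 bp. Pspc1, a paraspeckle protein (chromosome 14, 56778212 to 56778715), held one of 230 bp, and Kpnb1, the importin beta 1 nuclear transport receptor, one of 247 bp. Malt1, the paracaspase of NF-kB signalling, held one of 473 bp. Ppp2r5a, a regulatory subunit of protein phosphatase 2A, shared 218 bp. Slc11a1, a metal transporter of the macrophage phagosome, shared 203 bp at its 3′ end. The seventh was at Zfpm1, a GATA cofactor, named after its value was seen, with 143 bp shared. Over whole genes, 28 of 497 member genes (5.63%) held a cKO Pu.1 region. This stands beside 3.24% of all coding genes, which include genes silent in microglia, and the difference was not tested.

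Some promoters held an H3K4me3 region of each genotype. A cKO H3K4me3 region overlapped 24 members (5.48%) and lay within 1 kb of 52 (11.9%). These shares were 7.18% and 10.8% in the cWT gene-end regions with polymerase. They were 4.23% and 7.04% in the cWT regions away from ends without polymerase. In the cKO set, 3.28% overlapped a region of the cWT H3K4me3 list and 6.41% lay within 1 kb of one. At Dusp7, a phosphatase of ERK kinases, 1 cKO region (chromosome 9, 106369581 to 106370003) bridged the 2 members, sharing 63 and 51 bp with them. At Ccnd1, which encodes cyclin D1, 100 bp of the member (chromosome 7, 144938992 to 144939492) were in a cKO region, and at Junb the cKO region began 17 bp away. The 2 lists come from the H3K4me3 samples of the 2 genotypes, and their overlap is a description that was not tested. Of the member genes, 55 were also credited with a cKO region chosen alike, which is 11.1% of 497 and 6.66% of the 826 genes of that set. With 2 kb beside the gene and the gene body included, 70 of 497 (14.1%) held a cKO H3K4me3 region. This stands beside 6.16% of all coding genes, which include genes silent in microglia. The cKO regions that overlap members can count towards the 14.1%, and the difference was not tested.

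**Figure D3:**
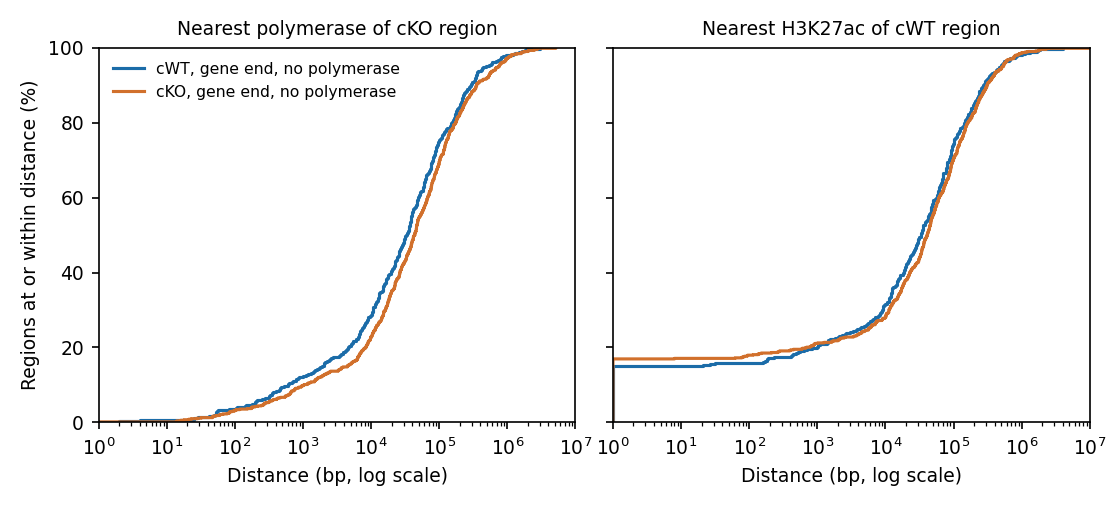
Cumulative percent of regions by distance to the nearest cKO polymerase region (left) and the nearest cWT H3K27ac region (right), on a log axis in bp, for the 438 cWT members and the 702 comparable cKO regions; overlaps are drawn at 1 bp. At 10 kb the left curves stand at 28.5% for cWT and 22.8% for cKO, and on the right 15.1% of the cWT members start as overlaps.

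The promoters under the members were rich in CpG. The 211 promoter windows overlapped, 1 per region and each counted once, held 24.5 ± 10.1 CpGs (mean ± SD) and 62.6% G and C. All 21263 promoter windows of coding genes held 15.4 ± 12.9 CpGs and 56.2% G and C. Without the 5 windows shared with the cKO set, members had 24.5 ± 10.1 CpGs (SD, 206 windows), and the cKO set had 22.1 ± 9.71 (SD, 342 windows). The difference of 2.35 CpGs per 300 bases was called (two-sided permutation test, adjusted p = 0.0319). The permutation test did not call it among regions below the median deposited p of each list (difference 1.12, adjusted p = 0.798), nor with all RefSeq genes in place of coding genes (1.84, adjusted p = 0.176). Among named genes the count ran from 6 at Fcrls and at Klhl6, a ubiquitin ligase adaptor of lymphoid cells, to 40 at Ehmt2 and 50 at Ranbp9.

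**Figure D4:**
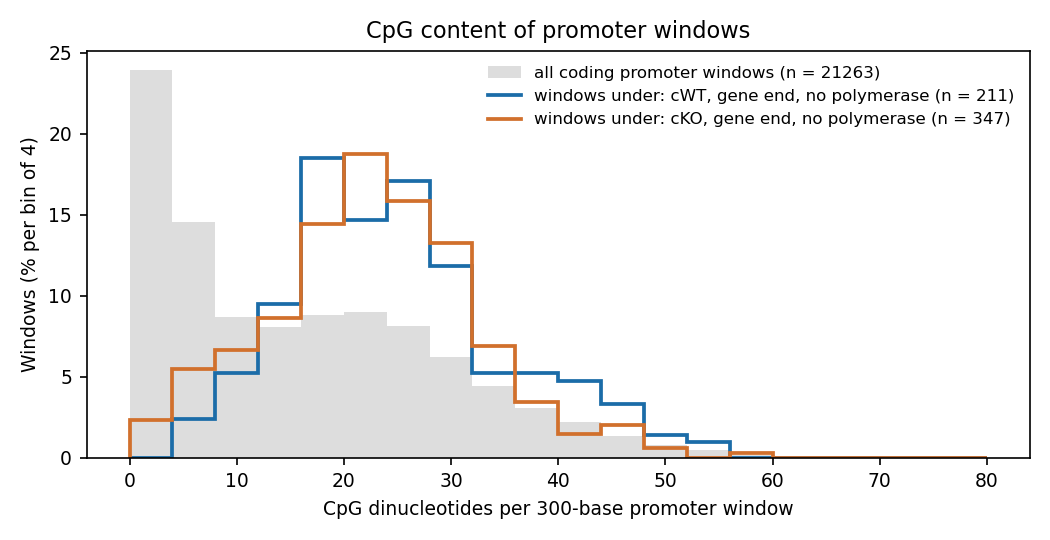
CpG dinucleotides per 300-base promoter window (percent of windows per bin of 4) for windows under cWT members (211), under the comparable cKO regions (347) and for all coding genes (21263, grey). Both sets lie to the right of all promoters, with means of 24.5 and 22.2 against 15.4.

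Motifs were counted on both strands of the same windows, without a test. A GC box (GGGCGG), the core of Sp1-type sites, was in 149 of 211 member windows (70.6%), beside 46.2% of all coding windows and 70.3% of the cKO set. CCAAT was in 39.8%, beside 38.2% of all and 40.1% of the cKO set. The TATA box TATAAA was in 7.11%, beside 12.6% of all and 4.90% of the cKO set. The ETS motif CCGGAAGT was in 9.48% (all windows 5.15%, cKO set 12.7%). The Pu.1 core GAGGAAGT was in 4.74% (all windows 3.13%, cKO set 2.31%), and these motifs share the letters GGAAGT. The AP-1 motif TGANTCA was in 4.27% (all 6.99%, cKO set 3.46%). The E-box CACGTG was in 9.0% (all 7.84%, cKO set 11%). For the ETS, TATA, AP-1 and E-box motifs, the cKO share lay on the same side of all windows as the member share, and farther from it.

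The mature miR-137 of the gene deleted in cKO is printed with its seed, bases 2 to 8, in capitals, since the seed was searched in these promoters (RefSeq, GRCm38.p6, chr3:118433901-118433923, plus strand).
miR-137-3p: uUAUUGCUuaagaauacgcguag
The DNA match to the seed, AGCAATA, was in 1 of 211 member windows (0.474%, at Ccdc107), in 3 of 347 windows of the cKO set and in 1.69% of all coding windows. A match or its absence describes these letters in these windows alone.

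Among 18 gene lists, the share of genes with a member at an end was read beside 2.27% of all coding genes (497 of 21887). For the cKO set the share of all coding genes was 3.77% (826 of 21887), and no difference between the sets was tested on the lists. The lists are selections of 10 to 33 genes, so genes of the same kind outside a list can hold members too. Ehmt2 and the ribosomal protein gene Rpl35, the latter named after its values were seen, held members without being on the chromatin or ribosomal list. All coding genes include genes silent in microglia, so a higher share in a list of genes active in these cells is not particular to that list.

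Homeostatic microglia genes held members at 5 of 33 (15.2%). Fcrls had its member at chromosome 3, 87262953 to 87263629 (signal 16.9), and Olfml3, a secreted glycoprotein, at 103737297 to 103737862 of the same chromosome (14.4). P2ry13, a purinergic receptor, had a signal of 11.6, and Ctss, a lysosomal protease, one of 13.3. In the cKO set 5 of 33 homeostatic genes were credited: P2ry12, Cx3cr1, Siglech, Itgam and Ctss. Phagocytosis and lysosome genes held 3 of 30 (Fcgr3, an Fc receptor, and Ctss among them). Disease-associated microglia genes held 2 of 23. These were Lpl, a lipoprotein lipase (chromosome 8, 68880981 to 68881826, signal 19), and Tyrobp, the signalling adaptor of Trem2 (23.0).

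Immediate early and dissociation genes held the highest share of the 18 lists, 6 of 24 (25%), beside 9 of 24 in the cKO set, with Junb, Dusp1 and Hspa1b in both. Fosb, an AP-1 subunit, had 2 adjoining members (signal 10.8 in both). Atf3, a stress-induced factor, had a signal of 12, Junb one of 9.21 and the heat shock gene Hspa1b one of 9.08. Fos, named here after its values were seen, had 2 adjoining members at chromosome 12, 85473565 to 85474104 and 85474105 to 85474427. The first held a whole cKO H3K27ac region of 347 bp. As background, these genes are induced within minutes by stimuli and also by tissue dissociation. Hspa1b has a near-identical neighbour, Hspa1a, so its value is uncertain.

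Myeloid transcription factors held 3 of 27: Mitf, Runx1 (signal 16) and Maf (7.61), a macrophage bZIP factor. Cytokine and NF-kB genes held 2 of 30. These were Nfkbia, which encodes the inhibitor IkBα (chromosome 12, 55492003 to 55492585, signal 19.4), and the cytokine gene Il1a (chromosome 2, 129308427 to 129309354, 22.4), where 698 bp were shared with a cWT H3K27ac region. Interferon response genes held 0 of 28. The cKO set held 6 of 28 (Irf9, Stat2, Oas1a, Ddx58, Xaf1 and Usp18), and the difference was not tested. Oasl1, with the smallest deposited p of the members, was not on that list. DNA repair genes held 0 of 30 and microRNA machinery 0 of 14.

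Cell cycle genes held 4 of 30 (13.3%): Plk1 (signal 19.7), Ccnd1 (19.4), the mitotic kinase Aurkb (16.2) and the replication licensing factor Mcm3 (11.3). Splicing genes held 3 of 30: Hnrnpa2b1 (19.4, 1145 bp wide), Srsf3 (12.9) and Hnrnpl (22.3). Oxidative phosphorylation held 3 of 30, with Cox5b of complex IV (15.8) and Ndufv1 of complex I (10.4) over cWT H3K27ac and Sdhb of complex II not. Ribosomal proteins held 1 of 30 (Rps9, over cWT H3K27ac) and chromatin regulators 1 of 30 (Rbbp5, 15.4). Of the markers of other cells, neurons held 0 of 12, astrocytes 0 of 10 and oligodendrocytes 0 of 11. Endothelial and other blood cell markers held 1 of 15, the endothelial gene Kdr (signal 15.0). For the lists whose cKO count is not given above, the cKO set held 3 DNA repair genes and 2 each of the myeloid factor, cell cycle and oxidative phosphorylation lists. It held 1 gene each of the cytokine, ribosomal, splicing, chromatin, microRNA machinery, phagocytosis and oligodendrocyte lists, and 0 of the others. The lists of genotype-specific regions give no level of H3K4me3 at marker genes, so cell purity could not be read from them.

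**Figure D5:**
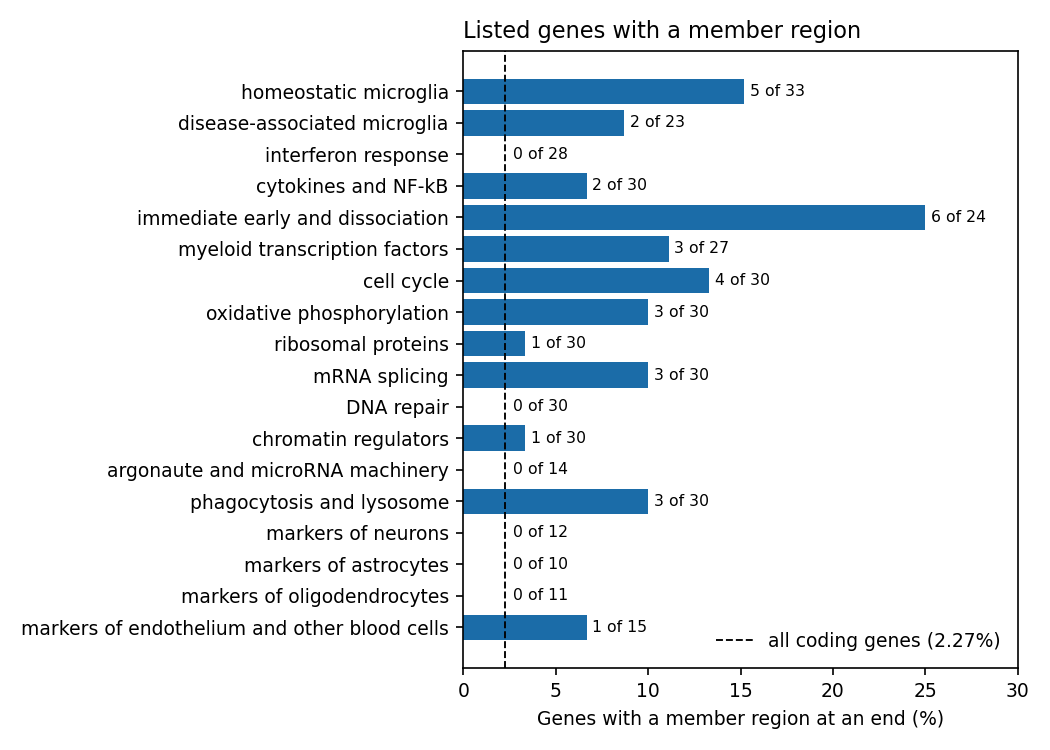
Percent of the genes in each of 18 lists that have a member region within 2 kb of an end, with counts beside the bars; the dashed line is the 2.27% of all 21887 coding genes. Immediate early and dissociation genes (6 of 24) and homeostatic microglia genes (5 of 33) stand highest. The interferon response, DNA repair, microRNA machinery, neuronal, astrocyte and oligodendrocyte lists are at 0.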

How the data were processed

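The deposited data are 10 region lists (5 antibodies in 2 genotypes), each giving a position, a score from 7 to 1000 for the members, a signal on an unstated scale, a p-value and a q-value. Per the submitters' processing notes, the tools were MACS2 2.2.7.1, HOMER 4.11, Bowtie2 2.4.4 and bedtools 2.30.0, with the builds GRCm38 and mm10. The sources used here do not say how replicates were pooled or what made a region specific to 1 genotype. The deposited score, signal and p-value were used only to describe and rank regions within a list.

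Starts were converted to count from 1. Genes (21887 protein-coding) and promoter windows (21263, for 17492 of these genes, none on chromosome 18) came from RefSeq GRCm38.p6. Exons and introns were not annotated. The start nearest a region's midpoint, and 1 window per region, were used, and an overlap was at least 1 bp. The promoter tests leave out chromosome 18. The 5 planned tests were adjusted together by Benjamini-Hochberg: 4 two-sided Fisher's exact tests on counts of regions, and a permutation test with 100000 resamples of the mean CpG count, without windows that both sets share. Odds ratios add 0.5 to each cell.

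The members and gene lists were chosen with earlier results of these data known. Named genes followed a rule: up to 10 genes with 2 or more members; the 8 members with the smallest p; the first 8 over cWT H3K27ac and 6 over Pu.1 by p; up to 4 per gene list; 3 on each side of each limit; and the 3 widest. Some genes that the rule names are not reported here. The rule for printed promoters took genes named by p, by H3K27ac or from a list with the whole window inside a member. Of these only Kdr met it, so windows with at least 150 bases inside were added after the values were seen. Functions were tested on simulated regions. Python 3.11.15, numpy 2.4.6, pandas 2.3.3, scipy 1.17.1 and matplotlib 3.10.9 were used.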

Additional observations from a re-analysis of the deposited data

How the results depend on the processing

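The lists pool the replicates, so leaving out replicates was not possible. No paired analysis was possible because the columns of the deposited lists carry no replicate. Each result was recomputed under 11 alternatives, of which 2 were added after seeing the data (without 1 Mb windows of at least 10 predicted genes, and without regions within 1 kb of the other H3K4me3 list). The number of members lay between 318 and 468, except among regions below the median deposited p of each list, where it was 196 by construction. Both H3K27ac comparisons kept their direction, with member shares between 12.6% and 19.1% and no call. The difference in the Pu.1 share was uncalled throughout and turned its sign with a 5 kb window (1.73% of members against 1.86%) and with all RefSeq genes (1.5% against 1.99%). The promoter overlap share, also uncalled, turned its sign below the median p (57.1% against 52.3%). The CpG difference kept its sign under all 11 alternatives and its call under 9. It lost the call below the median p (mean 24.0, adjusted permutation p = 0.798) and with all RefSeq genes (mean 24.3, adjusted p = 0.176). The difference was 1.12 CpGs over 108 member windows in the first and 1.84 over 218 in the second, against 2.35 over 206 as reported, and the cause was not tested. Depth is unknown, and its effect on which regions were listed was not tested.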

Other observations

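Chromosome 2 held 53 of the 438 members (12.1%), against 49 of 702 (6.98%) in the cKO regions chosen alike, 11 of 195 (5.64%) in the cWT gene-end regions with polymerase and 8.14% of all coding genes. This pattern was noticed after the values were seen and was not tested. On chromosome X the shares were 3.65% of members and 3.70% of the cKO set.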
